A study of Mus musculus with 14 samples.

Results

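The clustered replication-type histone genes are the small genes of the Hist1, Hist2, Hist3 and Hist4 clusters that encode the linker histone H1 and the core histones H2A, H2B, H3 and H4. They were taken as every gene whose symbol begins with Hist1h, Hist2h, Hist3h or Hist4h, leaving out the testis genes Hist1h1t, Hist1h2ba and Hist1h2aa. This gave 64 of the 20626 genes measured. The Hist1 cluster on chromosome 13 holds 51 of them, Hist2 on chromosome 3 holds 10, Hist3 on chromosome 11 holds 2 and Hist4 on chromosome 6 holds 1. By product there are 5 H1, 17 H2A, 17 H2B, 12 H3 and 13 H4 genes.

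Cells were sorted by FACS, on Hoechst and propidium iodide staining, from testes of adult C57BL/6J mice that were wild type (WT) or labelled Setd2KO. The spermatocytes were in the pachytene and diplotene stages of meiosis (PD), and the round spermatids (RS) are their haploid products. Polyadenylated RNA was sequenced from 2 libraries in each of the 4 groups PD WT, PD Setd2KO, RS WT and RS Setd2KO, and the histone mark H3K36me3, trimethylated lysine 36 of histone H3, was mapped in 1 peak list per group. The Setd2 allele, the line that deletes it, the cells in which it is deleted and the number of animals behind a library are not given in the sources used here, so p-values measure the spread between libraries, which may be technical.

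As background, replication-type histone genes lack introns, and dividing cells transcribe them in S phase to supply histones for new DNA. Their transcripts normally end in a stem-loop bound by SLBP, made by a cut that needs the U7 snRNP, and carry no poly(A) tail. A poly(A)-selected library therefore sees the tailed share of these transcripts and says nothing of the rest. Spermatocytes have finished their last S phase, and spermatids later exchange most histones for transition proteins and protamines. SETD2 places H3K36me3 on gene bodies behind elongating RNA polymerase II.

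The promoters show how the classes are built, and 6 are printed because their genes carry the main patterns in the RNA. They are Hist1h1e, Hist1h2bj and Hist1h4m, which were higher in Setd2KO spermatocytes, Hist3h2a, which is covered by H3K36me3 in WT, and Hist1h2bp and Hist1h4a, whose RNA rose from WT spermatocytes to WT spermatids. Each is the stretch of 150 bases before the RefSeq start, in build GRCm38.p6. Capitals mark CCAAT, the box bound by the factor NF-Y, TATAAA, a form of the TATA box, and ATTTGCAT, the octamer bound by OCT1, each on either strand.
Hist1h1e: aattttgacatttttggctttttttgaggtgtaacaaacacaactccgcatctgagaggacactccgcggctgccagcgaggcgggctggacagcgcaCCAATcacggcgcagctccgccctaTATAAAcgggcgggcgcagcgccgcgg
Hist1h2bj: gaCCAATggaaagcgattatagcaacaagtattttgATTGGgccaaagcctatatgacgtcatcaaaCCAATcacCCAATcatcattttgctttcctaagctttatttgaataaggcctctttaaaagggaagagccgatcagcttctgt
Hist1h4m: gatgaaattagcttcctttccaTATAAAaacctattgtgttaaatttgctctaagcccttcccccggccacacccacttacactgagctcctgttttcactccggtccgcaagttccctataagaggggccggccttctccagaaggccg
Hist3h2a: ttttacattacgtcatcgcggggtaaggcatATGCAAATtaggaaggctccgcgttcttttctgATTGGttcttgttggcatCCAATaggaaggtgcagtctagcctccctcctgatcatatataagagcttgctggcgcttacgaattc
Hist1h2bp: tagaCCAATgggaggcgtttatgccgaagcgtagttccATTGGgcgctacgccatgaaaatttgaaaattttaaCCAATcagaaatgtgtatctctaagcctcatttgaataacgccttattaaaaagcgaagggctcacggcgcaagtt
Hist1h4a: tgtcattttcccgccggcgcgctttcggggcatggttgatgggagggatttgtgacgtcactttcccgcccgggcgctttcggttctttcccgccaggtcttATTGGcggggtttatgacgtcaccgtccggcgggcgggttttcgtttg
Their positions are chr13:23622559-23622708 (minus strand) for Hist1h1e, chr13:22043048-22043197 (plus strand) for Hist1h2bj, chr13:21811596-21811745 (plus strand) for Hist1h4m, chr11:58954535-58954684 (plus strand) for Hist3h2a, chr13:21787338-21787487 (plus strand) for Hist1h2bp and chr13:23761250-23761399 (minus strand) for Hist1h4a. In a window of 250 bases before to 50 after the start, matched for 58 of the 64 genes through RefSeq symbols and synonyms, CCAAT was present in 49 (84.5%), against 41.1% of 27025 RefSeq genes. All 5 H1, 16 H2A, 15 H2B and 10 H3 promoters held it, but only 3 of 12 H4 promoters did, those of Hist1h4a, Hist1h4c and Hist1h4d. TATAAA was present in 33 (56.9%), against 15.7% of all genes. The octamer was present in 12 (20.7%), against 1.97%, and these were 6 H2A and 6 H2B promoters. Matches of the different motifs were counted separately, whether or not they shared bases, and are letter matches only.

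Most clustered histone genes reached a low threshold in spermatocytes, and a minority reached it in spermatids. RNA is given as FPKM, fragments per kilobase per megaread, a scale on which genes of different length can be compared. A mean of at least 1 FPKM was reached by 51 of the 64 genes in PD WT, 60 in PD Setd2KO, 24 in RS WT and 26 in RS Setd2KO. The test kept genes with such a mean in any group, so 60 were tested, and 9 of these entered through PD Setd2KO alone. Those 9 had to be higher there, so the counts below are read beside all 64. The 4 genes below the threshold were Hist1h2bh (highest library 0.990 FPKM), Hist1h1d (0.866 FPKM), Hist2h4 (0.563 FPKM) and Hist1h1b (0.145 FPKM).

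Depth was 50.7 to 84.8 megareads per library, as recovered from whole reads in the low FPKM values. The median number of reads per histone gene was 71 and 121 in the PD WT libraries, 246 and 301 in PD Setd2KO, and 18.5 to 30 in the RS libraries. PD WT replicate 1 was below replicate 2 for 59 of the 64 genes, with a median ratio of 1.52 against 1.16 over all tested genes. Setd2 itself was at 21.2 and 19.1 FPKM in WT and 21.0 and 21.4 in Setd2KO spermatocytes, and 5.24 and 5.58 in WT and 12.1 and 8.67 in Setd2KO spermatids. It was not lower in the libraries labelled Setd2KO, and a value over the whole gene cannot show a deleted exon, so genotypes of the RNA libraries rest on their labels. Sequences of histone genes of 1 class are nearly identical, how reads that match several were shared out is not given in the sources used here, and the split between such genes is uncertain. Hist1h2bq and Hist1h2br occupy 1 interval with equal values, and Hist1h2ao with Hist1h2ap, Hist2h2aa1 with Hist2h2aa2 and Hist2h3c1 with Hist2h3c2 overlap.

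In WT spermatocytes, 5 genes carried much of the signal. Hist1h4c, an H4 gene (chr13:23789953-23790327, minus strand, in build mm9, as for all gene and peak positions from here on), was at 115 and 182 FPKM in WT and 238 and 249.8 in Setd2KO spermatocytes, and 10.1 and 8.03 in WT and 12.1 and 9.05 in Setd2KO spermatids. Hist3h2a, an H2A gene (chr11:58768187-58768694, plus strand), was at 134 and 191, 221 and 219, 5.47 and 8.32, and 11.1 and 10.0 FPKM in the same order. Both were high in all 4 spermatocyte libraries and low in all 4 spermatid libraries. The overlapping H2A genes Hist2h2aa1 and Hist2h2aa2 (chr3:96049380-96049975, plus strand) differed from them. Hist2h2aa1 was at 79.1 and 121 FPKM in WT and 157 and 154 in Setd2KO spermatocytes, and 107.0 and 84.0 in WT and 91.5 and 98.3 in Setd2KO spermatids, so spermatids held it at a level inside the range of WT spermatocytes. Hist1h4h, an H4 gene (chr13:23622913-23623347, plus strand), was at 51.5 and 83.0 FPKM in WT and 134 and 130.4 in Setd2KO spermatocytes, and 2.25 and 2.94 in WT and 4.75 and 3.66 in Setd2KO spermatids.

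**Figure D1:**
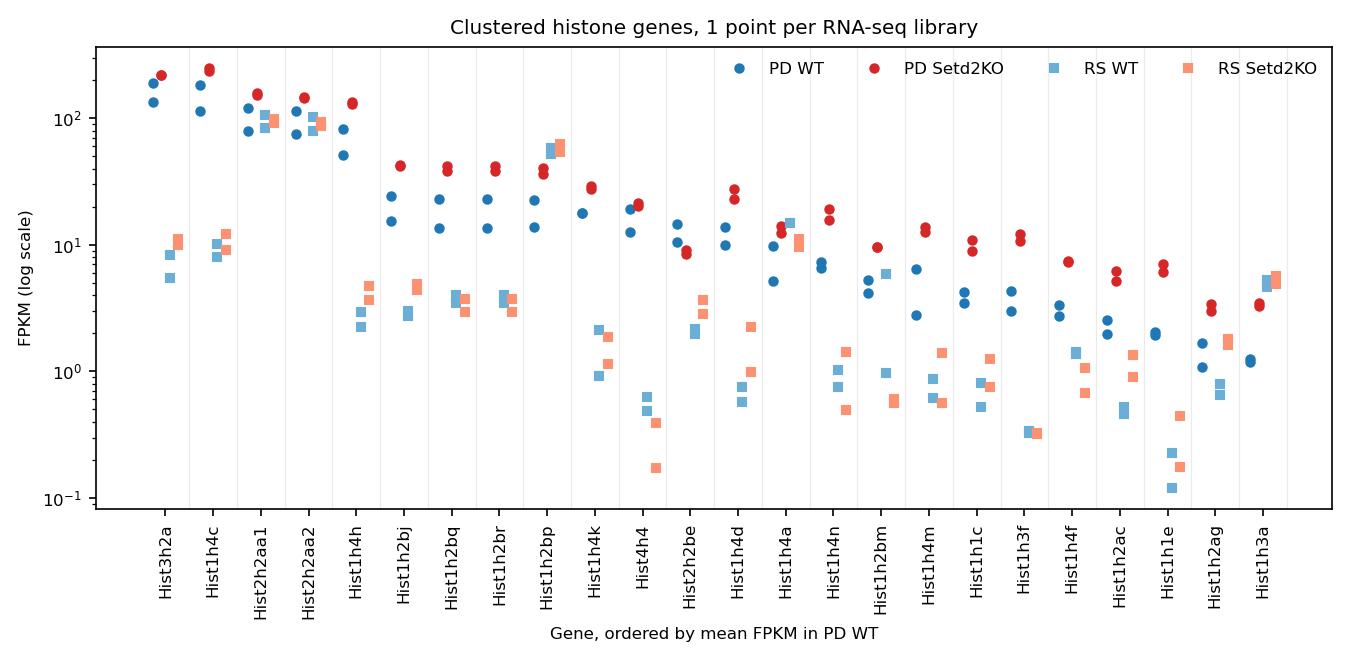
FPKM (log scale) of the 24 histone genes described with a value in every library, ordered by their mean in PD WT; each point is 1 library, circles are PD and squares RS, with WT in blue and Setd2KO in red. Red circles lie above blue circles for most genes, Hist2h2be is the exception with both red circles below both blue ones, and squares lie below all circles except for Hist2h2aa1, Hist2h2aa2, Hist1h2bp, Hist1h4a, Hist1h3a, Hist1h2bm and Hist1h2ag.

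The first comparison was Setd2KO against WT in spermatocytes, in which most Hist1 genes were higher. Summed over the 64 genes, the level was 714 and 1094 FPKM in the PD WT libraries and 1491 and 1493 FPKM in PD Setd2KO, a ratio of means of 1.65. This sum counts overlapping genes in full and is on the deposited scale. On that scale all genes summed to 181915 and 225288 FPKM in PD WT and 221211 and 224404 in PD Setd2KO. Of the 64 genes, 45 were called higher and 1 lower (limma on log2(FPKM + 1), Benjamini-Hochberg adjusted p under 0.05), beside 29.8% and 6.3% of the 11452 genes tested. The median log2 change was 0.80 over the 60 tested histone genes and 0.19 over all tested genes. Of the 51 genes with a mean over all 8 libraries of at least 1 FPKM, a level taken over all groups, 37 were called higher and 1 lower. Libraries of the 2 genotypes did not overlap, with Setd2KO above, for 51 of the 64 genes and, with Setd2KO below, for 1, beside 56.6% and 14.5% of all tested genes.

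Another scaling moved the all-gene median by more than 0.1, to 0.03 with upper-quartile scaling and 0.00 with quantile normalization, where 1836 genes were called higher and 1642 lower, and 1506 and 1787. The histone counts were then 35 higher and 1 lower, and 36 and 1. Log2 changes in PD are therefore given below less the all-gene median of 0.19, with the p-value of the test on the deposited scale. Without PD WT replicate 1 the count called higher was 33, and without PD WT replicate 2 it was 54.

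The H1 genes are the linker histones, which bind the DNA between nucleosomes. All 3 that were tested, Hist1h1a, Hist1h1c and Hist1h1e, rose. Hist1h1e (chr13:23713646-23714427, minus strand) was at 1.95 and 2.05 FPKM in WT and 7.06 and 6.08 in Setd2KO spermatocytes, and 0.120 and 0.226 in WT and 0.441 and 0.174 in Setd2KO spermatids. The PD Setd2KO libraries stood apart from all others, with a relative log2 change of 1.14 ± 0.12 (SE, adjusted p = 5.2e-05). Hist1h1c (chr13:23830676-23831400, plus strand) was at 3.45 and 4.21, 11 and 8.92, 0.520 and 0.814, and 1.26 and 0.752 FPKM in PD WT, PD Setd2KO, RS WT and RS Setd2KO. Its relative change in PD was 0.99 ± 0.16 (adjusted p = 0.000518), and the 2 PD groups did not overlap.

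The H3 and H4 genes encode the pair of histones that start a nucleosome. All 9 Hist1 H3 genes rose, Hist1h3a, Hist1h3b, Hist1h3c, Hist1h3d, Hist1h3e, Hist1h3f, Hist1h3g, Hist1h3h and Hist1h3i, while Hist2h3b, Hist2h3c1 and Hist2h3c2 were not called. Of these 9, Hist1h3c, Hist1h3d, Hist1h3e, Hist1h3g, Hist1h3h and Hist1h3i entered the test through PD Setd2KO alone and so had to be higher there, which leaves 3 (Hist1h3a, Hist1h3b and Hist1h3f). Hist1h3f (chr13:23635921-23636823, plus strand) was at 2.99 and 4.30 FPKM in WT and 10.8 and 12.3 in Setd2KO spermatocytes, and 0.339 and 0.327 in WT and 0.324 and 0.319 in Setd2KO spermatids. It had the largest relative change of the tested histone genes in PD, 1.25 ± 0.13 (adjusted p = 6.6e-05), and its spermatid libraries were all low. Hist1h3i had the smallest of those called higher, 0.15 ± 0.09 (adjusted p = 0.014).

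Of 12 tested H4 genes 10 rose, Hist1h4a, Hist1h4c, Hist1h4d, Hist1h4f, Hist1h4h, Hist1h4i, Hist1h4j, Hist1h4k, Hist1h4m and Hist1h4n, and Hist1h4b and Hist4h4 were not called. Hist1h4m (chr13:21903615-21904019, plus strand) was at 2.80 and 6.40 FPKM in WT and 12.6 and 13.8 in Setd2KO spermatocytes, and 0.611 and 0.874 in WT and 1.40 and 0.561 in Setd2KO spermatids, a relative change in PD of 1.23 ± 0.27 (adjusted p = 0.00262). Hist1h4n (chr13:21923662-21924027, minus strand) was at 6.52 and 7.34 FPKM in WT and 15.7 and 19.1 in Setd2KO spermatocytes, and 1.03 and 0.752 in WT and 1.41 and 0.497 in Setd2KO spermatids. For both genes PD Setd2KO was the highest group without overlap, and the change of Hist1h4n was 1.02 ± 0.20 (adjusted p = 0.00126). Hist1h4h changed by 0.81 ± 0.21 (adjusted p = 0.00418).

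Other H4 calls were less firm. Hist1h4c changed by 0.56 ± 0.22 (adjusted p = 0.0216), but the call ended without PD WT replicate 1, PD Setd2KO replicate 1 or PD Setd2KO replicate 2 (adjusted p from 0.0588 to 0.132) and with upper-quartile scaling (0.0742). Hist1h4k was at 17.7 and 17.7 FPKM in WT and 27.6 and 29.2 in Setd2KO spermatocytes, and 0.921 and 2.12 in WT and 1.85 and 1.15 in Setd2KO spermatids, and its change of 0.46 ± 0.21 (adjusted p = 0.0298) lost its call without any 1 of the 4 PD libraries (0.063 to 0.127), with upper-quartile scaling (0.155) and with quantile normalization (0.0967). Hist1h4d, at 9.88 and 13.9 FPKM in PD WT and 23.2 and 27.7 in PD Setd2KO, changed by 0.86 ± 0.22 (adjusted p = 0.00416), which without PD WT replicate 1 had an adjusted p of 0.0592.

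H2A and H2B pair with each other on the outside of the nucleosome. Of 17 H2A genes 12 rose, Hist1h2ab, Hist1h2ac, Hist1h2ad, Hist1h2af, Hist1h2ag, Hist1h2ah, Hist1h2ai, Hist1h2ak, Hist1h2ao, Hist1h2ap, Hist2h2aa1 and Hist2h2aa2. Of these 12, Hist1h2af and Hist1h2ak entered the test through PD Setd2KO alone and so had to be higher there. Hist1h2ae, Hist1h2an, Hist2h2ab, Hist2h2ac and Hist3h2a were not called. Hist3h2a, the highest of the 64 genes in WT spermatocytes, changed by 0.27 ± 0.20 (adjusted p = 0.0976) although both Setd2KO libraries lay above both WT libraries. Hist2h2aa1 changed by 0.47 ± 0.20 (adjusted p = 0.0274), and the call ended without PD WT replicate 1 or either PD Setd2KO library (0.0968 to 0.114) and with upper-quartile scaling (0.0757).

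Of 16 tested H2B genes 11 rose, Hist1h2bb, Hist1h2bc, Hist1h2bf, Hist1h2bg, Hist1h2bj, Hist1h2bk, Hist1h2bl, Hist1h2bp, Hist1h2bq, Hist1h2br and Hist2h2bb. Of these 11, Hist1h2bg entered the test through PD Setd2KO alone and so had to be higher there. Hist1h2be, Hist1h2bm, Hist1h2bn and Hist3h2ba were not called. Hist1h2bj (chr13:22135099-22135527, plus strand) was at 15.5 and 24.2 FPKM in WT and 42.9 and 42.3 in Setd2KO spermatocytes, and 3.02 and 2.75 in WT and 4.38 and 4.87 in Setd2KO spermatids, a relative change in PD of 0.91 ± 0.18 (adjusted p = 0.00122). Hist1h2bq and Hist1h2br, counted on 1 interval (chr13:21925612-21926070, plus strand), were each at 13.6 and 22.8, 41.9 and 38.4, 4.00 and 3.47, and 3.72 and 2.94 FPKM in that order. The libraries of the 2 PD groups did not overlap for any of these genes. Hist1h2be was the least even, at 3.34 and 23.2 FPKM in PD WT and 11 and 11.5 in PD Setd2KO, so its WT libraries spanned both Setd2KO libraries.

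Hist2h2be, an H2B gene of the Hist2 cluster (chr3:96024995-96027661, plus strand), was the gene called lower. It was at 10.6 and 14.6 FPKM in WT and 9.12 and 8.39 in Setd2KO spermatocytes, and 1.98 and 2.15 in WT and 3.64 and 2.85 in Setd2KO spermatids. The order of the genotypes was thus opposite in the 2 cell types, without overlap in either. The relative change in PD was -0.66 ± 0.16 (adjusted p = 0.0382 on the deposited scale, 0.00734 with upper-quartile scaling and 0.00919 with quantile normalization). On the deposited scale the call ended without PD WT replicate 2, either PD Setd2KO library or either RS WT library (0.0629 to 0.193).

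**Figure D2:**
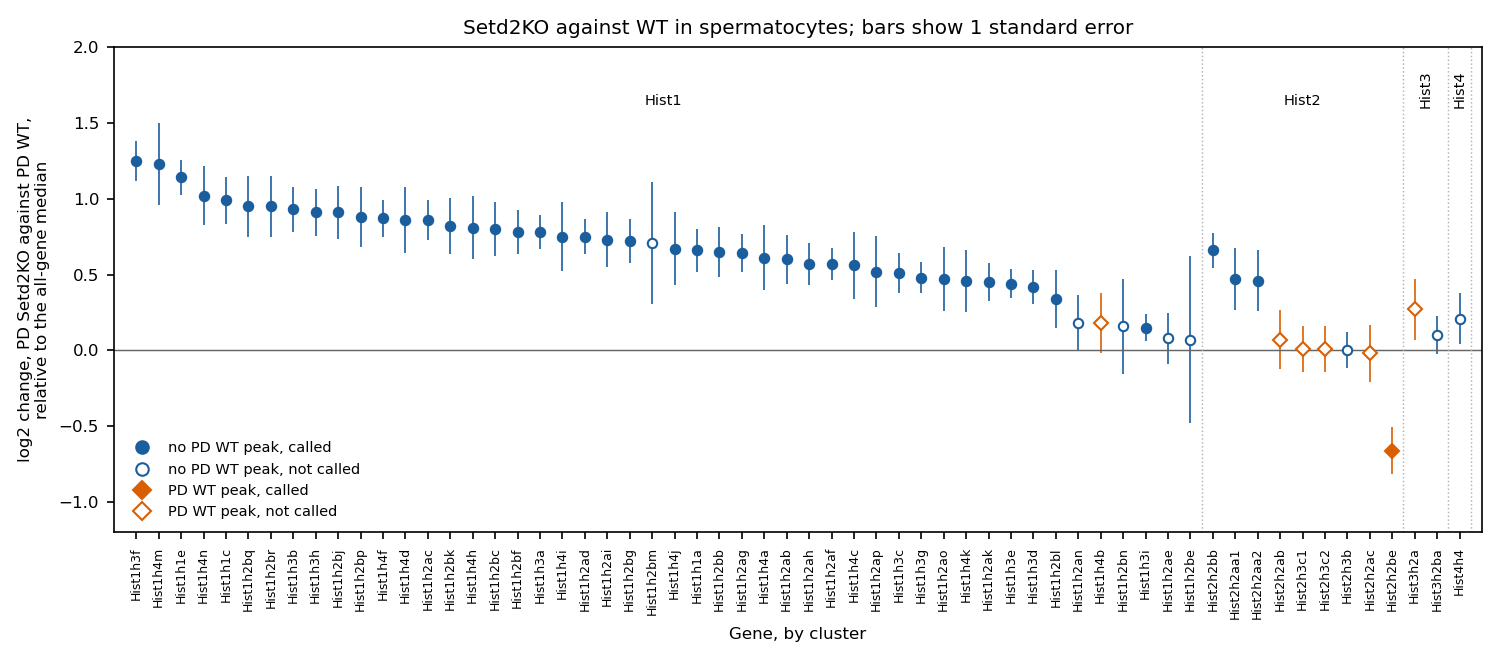
Log2 change from PD WT to PD Setd2KO less the all-gene median, with 1 standard error, for the 60 tested histone genes grouped by cluster; filled symbols passed the test and orange diamonds mark genes under an H3K36me3 peak in PD WT. In Hist1, 42 of 48 genes are filled and all lie above 0, and the 7 orange diamonds include 0 genes called higher.

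The clusters differed in their counts. In Hist1, 42 of 48 tested genes were called higher and 0 lower, with a median log2 change of 0.88 on the deposited scale. All 9 genes that entered through PD Setd2KO alone are Hist1 genes, and among the 39 Hist1 genes with a mean over all 8 libraries of at least 1 FPKM, 34 were called higher, with a median of 0.94. In Hist2, 3 of 9 were called higher and 1 lower, with a median of 0.20, and all 9 have such a mean. Neither Hist3 gene was called, and the Hist4 gene Hist4h4, at 12.7 and 19.1 FPKM in PD WT and 20.3 and 21.3 in PD Setd2KO, had an adjusted p of 0.088. Whether the clusters differ from each other was not tested.

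The 3 testis histone genes inside the Hist1 span, which the choice of genes leaves out, were called in part. Hist1h1t, the testis H1, had a relative change of -0.08 ± 0.16 (adjusted p = 0.619), and the H2B gene Hist1h2ba and the H2A gene Hist1h2aa rose by 0.74 ± 0.22 (adjusted p = 0.00895) and 0.56 ± 0.14 (adjusted p = 0.00256). Of the 49 other genes in the Hist1 span, 36 of them vomeronasal Vmn1r genes, 11 were tested. Of these 1 was called higher (Abt1) and 0 lower, beside 29.8% and 6.3% of all tested genes. All 11 log2 changes were positive on the deposited scale, and those of the Vmn1r genes were at most 0.18. Zfp184, Zfp322a and Pom121l2 changed by 0.35, 0.26 and 0.42 (adjusted p = 0.0502, 0.0681 and 0.0843).

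**Figure D3:**
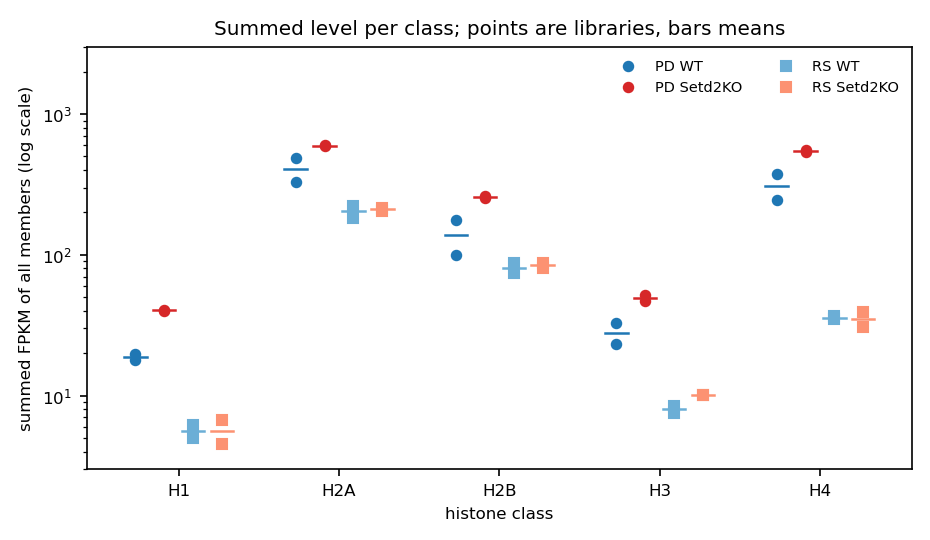
Summed FPKM (log scale) of all histone genes of each class; points are libraries, short bars group means, circles PD, squares RS, blue WT and red Setd2KO. In every class both PD Setd2KO points lie above both PD WT points, and the RS points of both genotypes lie below them.

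Class sums, also on the deposited scale and with overlapping genes counted in full, showed the same order of groups. Summed H1 was 17.8 and 19.6 FPKM in PD WT and 40.1 and 40.8 in PD Setd2KO, a ratio of means of 2.16. The ratio was 1.46 for H2A, 1.86 for H2B, 1.76 for H3 and 1.76 for H4. In spermatids the ratios of Setd2KO to WT were 1.01, 1.03, 1.04, 1.27 and 0.977 in the same order of classes. The H2A ratio there rested mostly on the overlapping Hist2h2aa1 and Hist2h2aa2. They supplied 186.1 of 203 FPKM in RS WT and 184.4 of 210 in RS Setd2KO.

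Markers of some other cells also differed between the genotypes in spermatocytes. Of 13 spermatogonia markers 7 were tested and 5 were higher in PD Setd2KO, among them Stra8, Uchl1 and Id4. The summed level of the 13 was 27.2 and 29.9 FPKM in PD WT and 47.3 and 57.3 in PD Setd2KO. Id4 alone supplied most of it, 18.9 and 21.1 FPKM in PD WT and 31.85 and 35.9 in PD Setd2KO. Stra8, which marks entry into meiosis, was at 0.511 and 0.306 FPKM in PD WT and 2.69 and 2.97 in PD Setd2KO. It entered the test through PD Setd2KO alone and so had to be higher there. Of the 13 markers, 5 were under 1 FPKM in all libraries and none was at 0 throughout. The level of 517 spermatid genes was taken as a median share of their RS level in the same genotype. It was 1.92% and 2.77% in PD WT and 13.1% and 7.67% in PD Setd2KO. These genes were picked on the WT groups alone, for spermatid levels of 20 FPKM or more that exceeded spermatocyte levels 20-fold or more. This holds the PD WT share low and leaves the PD Setd2KO share free, so the shares cannot compare the genotypes. Subtraction of the other cell type used these shares and has the same limit. With it, 42 histone genes were called higher and 1 lower. Summed Sertoli cell markers were 2.28 and 2.42 against 3.24 and 4.14 FPKM. The part of spermatogonia and of somatic cells in the histone result was not tested.

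The genes that act before and beside the histone genes were taken from lists of their own. Among 16 tested DNA replication genes, 5 rose and 1 fell with Setd2KO in PD, with a median log2 change of 0.11, below the all-gene median of 0.19. The 3 called with the largest change were Cdc6, which loads the replicative helicase (2.42 FPKM in PD WT and 0.693 in PD Setd2KO), Mcm3, a helicase subunit (2.77 and 5.80), and Prim1, the primase (2.50 and 4.15). Of 17 tested genes of histone gene transcription 4 were higher and 0 lower (median 0.04), led by Nfyc, a subunit of the CCAAT-binding NF-Y (5.59 and 9.61), the zinc finger factor Yy1 (14.3 and 20.3) and Ccna2, an S-phase cyclin (2.57 and 3.86). Npat, the co-activator dedicated to these genes, was at 4.82 and 5.48 FPKM in PD WT and 4.41 and 4.96 in PD Setd2KO.

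Of 35 tested genes of histone mRNA 3-prime end processing and turnover, 8 were higher and 2 lower (median 0.17), again beside 29.8% and 6.3%. Slbp, the stem-loop binding protein, was at 43.9 and 55.0 FPKM in PD WT and 51.9 and 57.5 in PD Setd2KO (adjusted p = 0.442). The largest changes called were those of Cstf2, a factor of polyadenylation (0.362 and 0.407 against 2.84 and 2.18 FPKM), Casp8ap2, which acts in histone pre-mRNA processing (2.78 and 2.81 against 4.72 and 5.25), and Snrpb, a core snRNP protein (means of 40.6 and 64.1). Cstf2 is X-linked, and in RS it stood at 19.7 to 26.5 FPKM in all 4 libraries. Of 18 tested histone genes of the replication-independent kind, a list that includes the 3 testis genes, 11 were higher and 0 lower (median 0.47), among them H2afx (51.4 and 84.5 against 142 and 141 FPKM), H3f3b (153 and 104.0 against 254 and 265) and the spermatid gene Hils1 (means of 7.35 and 25.1).

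In spermatids, the genotypes overlapped in sum and 9 histone genes were called. Summed over the 64 genes, the level was 360.1 and 307 FPKM in RS WT against 343 and 347 in RS Setd2KO, with the Setd2KO libraries inside the range of WT. Of the group means, the overlapping Hist2h2aa1 and Hist2h2aa2 supplied 186.1 FPKM in RS WT and 184.4 in RS Setd2KO. The other 62 genes summed to 147.5 and 160.6 FPKM. Of the 64 genes, 7 were called higher and 2 lower in Setd2KO, beside 20.9% and 21.8% of all tested genes, with a median log2 change of 0.11 against 0.02. With a pseudocount of 0.1 FPKM, which compresses low levels less, 14 were called higher. The Setd2KO libraries were both above both WT libraries for 27 genes and both below for 6, beside 40.4% and 37.7% of all tested genes. Hist3h2a, Hist1h2ag, Hist1h2bj, Hist1h3d, Hist1h4d, Hist1h2ac and Hist2h2be were called higher, and Hist1h2bm and Hist1h4f lower. The counts fell to 2 higher and 0 lower without RS WT replicate 1, 3 and 1 without RS WT replicate 2, 2 and 1 without RS Setd2KO replicate 1, and 5 and 0 without RS Setd2KO replicate 2.

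Markers of the spermatids and of some other cells differed between the genotypes as well. The summed level of 12 spermatid markers was 4960 and 4800 FPKM in RS WT against 1750 and 1870 in RS Setd2KO. Prm1, Prm2, Tnp1 and Tnp2 supplied most of the sum in RS WT and most of the fall, with Prm1 at 941 and 912 against 238 and 219 FPKM. Of the 12 markers 5 were called lower and 0 higher, and Spaca1 overlapped, at 194 and 180 against 158 and 200 FPKM. Summed spermatocyte markers, also 12, were 483 and 546 against 773 and 718 FPKM, with 5 called higher and 2 lower. Summed Sertoli cell markers were 4.17 and 5.58 against 12.7 and 11.1 FPKM, myoid cell markers 2.18 and 3.29 against 10.7 and 9.68, and Leydig cell markers 9.67 and 5.11 against 10.2 and 14.7. Spermatogonia markers, at 9.49 and 11.7 against 11.7 and 11.1 FPKM, overlapped. So did macrophage and blood markers, at 3.98 and 6.78 against 6.27 and 4.95. The part of these cells in the histone calls was not tested.

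Hist1h2ag, an H2A gene (chr13:22134347-22134818, minus strand), had the largest rise, at 0.649 and 0.792 FPKM in RS WT, 1.61 and 1.80 in RS Setd2KO, 1.08 and 1.68 in PD WT and 3.42 and 2.99 in PD Setd2KO. Its log2 change in RS was 0.65 ± 0.13 (adjusted p = 0.00192) and in PD, relative to the all-gene median, 0.64 ± 0.13 (adjusted p = 0.00094). Both Setd2KO libraries were above both WT libraries in each cell type. Hist1h2ac, another H2A gene, was at 0.459 and 0.525 FPKM in RS WT against 1.34 and 0.902 in RS Setd2KO (log2 change 0.50 ± 0.13, adjusted p = 0.0111), a call that ended without RS WT replicate 1 or RS Setd2KO replicate 1 (0.0839 to 0.104). In PD it was at 1.97 and 2.54 FPKM in WT and 5.21 and 6.24 in Setd2KO.

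Other calls in spermatids rested on all 4 RS libraries or nearly so. Hist3h2a had a log2 change of 0.57 ± 0.20 (adjusted p = 0.0424), lost without RS WT replicate 1 or either RS Setd2KO library (0.0878 to 0.35). Hist1h2bj changed by 0.53 ± 0.18 (adjusted p = 0.0315), lost without any 1 of the 4 RS libraries (0.0782 to 0.144). Hist1h4d, at 0.576 and 0.748 FPKM in RS WT against 2.25 and 0.988 in RS Setd2KO, changed by 0.61 ± 0.22 (adjusted p = 0.0412), lost without either WT library of either cell type or without RS Setd2KO replicate 1 (0.0539 to 0.378). For these 3 genes the Setd2KO libraries were above the WT ones without overlap. Hist2h2be changed by 0.46 ± 0.16 (adjusted p = 0.0325), lost without either RS WT library or RS Setd2KO replicate 1 (0.0925 to 0.224).

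The 2 lower calls were of the same kind. Hist1h4f, an H4 gene (chr13:23643155-23643512, minus strand), was at 1.38 and 1.43 FPKM in RS WT against 1.06 and 0.677 in RS Setd2KO, and in PD at 2.73 and 3.35 in WT and 7.49 and 7.36 in Setd2KO. Its log2 change in RS of -0.37 ± 0.12 (adjusted p = 0.0319) was lost without either RS WT library or RS Setd2KO replicate 2 (0.122 to 0.238). Hist1h2bm, an H2B gene, was at 5.85 and 0.977 FPKM in RS WT against 0.607 and 0.565 in RS Setd2KO, so RS WT replicate 1 alone stood high. Its change of -1.22 ± 0.40 (adjusted p = 0.0307) was lost without RS WT replicate 1, either RS Setd2KO library or either PD WT library (0.0761 to 0.167). In PD it was at 4.17 and 5.28 FPKM in WT and 9.69 and 9.57 in Setd2KO (adjusted p = 0.101).

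The same lists in spermatids held calls in both directions, to be set beside 20.9% of all tested genes called higher and 21.8% lower. Of the 35 tested genes of 3-prime end processing and turnover, 4 were higher and 3 lower in RS Setd2KO, led by Cstf2t, the retrogene of Cstf2 (5.01 and 4.92 FPKM in WT, 12.1 and 10.0 in Setd2KO). Cpsf3l and the kinase gene Cdk9 were among the lower ones. Of the 17 transcription genes 3 were higher, Yy1 and the meiotic cyclin Ccna1 among them, and 3 lower, with Pou2f1, which encodes OCT1, at 3.04 and 2.94 FPKM in WT and 1.66 and 1.68 in Setd2KO. Of the 16 replication genes 3 were higher, with Rrm2, a ribonucleotide reductase subunit, and 2 lower, Cdc6 and Mcm5. Of the 18 replication-independent genes, 1 was higher, H2afx (4.76 and 5.92 against 13.7 and 10.6 FPKM), and 5 lower, with the spermatid genes H2afb1 and H1fnt.

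In the test of the difference between the 2 effects, 28 genes had a lower Setd2KO effect in RS than in PD and 1 a higher one, beside 27.3% and 7.76% of all tested genes. The median difference was -0.65 against -0.16 over all genes. The 28 were 26 Hist1 genes with Hist2h2bb and Hist4h4, and the 1 was Hist2h2be. Of the 28, Hist1h3h, Hist1h2bg, Hist1h3g, Hist1h2af, Hist1h2ak and Hist1h3e entered the test through PD Setd2KO alone, so their PD effect had to be a rise. Hist1h3f had a difference of -1.30 ± 0.19 relative to the all-gene median (adjusted p = 0.000419), and Hist1h1e -1.03 ± 0.17 (adjusted p = 0.000628). In both genes the spermatid libraries reached at most 0.441 FPKM, where a pseudocount of 1 FPKM compresses any change. With a pseudocount of 0.1 FPKM the number lower was 16 of 60, where 3177 of all 11452 tested genes were lower. The histone share was then near that of all genes. With quantile normalization the number lower was 18, where 2074 of all 11452 were lower. Upper-quartile scaling gave 19 lower and 1 higher, where over all tested genes 2273 were lower and 2389 higher, against 3126 and 889 on the deposited scale.

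Along the WT path from spermatocyte to spermatid, most histone genes fell. FPKM values are relative to all reads of a library, and fewer cells of a type and less RNA per cell cannot be told apart in bulk samples. Of the 64 genes, 50 were called lower and 3 higher in RS than in PD, beside 46.7% and 36% of all tested genes, with a median log2 change of -0.97 against -0.21. In Setd2KO, 56 were lower and 2 higher, beside 48.5% and 34.2%, with a median of -1.82 against -0.27. The 9 genes that entered the test through PD Setd2KO alone had to be lower in RS Setd2KO, and all 9 are among the 56. Only 28 of the 60 tested genes reached a mean of 1 FPKM in either RS group. The others entered through a PD group and so had to be lower in RS than in that group. The filter thus set the direction of many of the lower calls, in WT as well. With no filter the median was -0.78 against 0.00 over all genes in WT, and -1.67 against 0.01 in Setd2KO. Both RS libraries were above both PD libraries for 3 genes and below for 54 in WT, beside 39% and 50.6% of all tested genes, and for 2 and 59 in Setd2KO, beside 39.6% and 55%. The RS mean was 3.15% to 406% of the PD mean in WT, with a median of 20.9%, and under 10% for 15 genes. In Setd2KO the median was 13.8%, and 20 genes were under 10%.

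The steepest relative falls in WT were those of Hist3h2a (-4.16 ± 0.20, adjusted p = 4.9e-09), Hist1h4h (-4.0 ± 0.21, adjusted p = 6.49e-09), Hist1h4c (-3.65 ± 0.22, adjusted p = 1.67e-08), Hist4h4 (-3.20 ± 0.17, adjusted p = 6.56e-09) and Hist1h4d (-2.73 ± 0.22, adjusted p = 1.49e-07), given less the all-gene median, with the p-value of the test on the deposited scale. Hist4h4 (chr6:136752514-136752952, minus strand) was at 0.483 and 0.627 FPKM in RS WT against 0.393 and 0.173 in RS Setd2KO. In Setd2KO the fall of Hist1h4h was -4.42 ± 0.21 (adjusted p = 1.07e-08). Of the class sums, that of H4 kept the lowest share of its PD level, 11.5% in WT and 6.37% in Setd2KO. That of H2B kept 58.8% in WT and 32.8% in Setd2KO, and 21.8% and 12% without Hist1h2bp, which is described next. The testis genes Hist1h1t, Hist1h2ba and Hist1h2aa fell further than most clustered genes, to 1.37%, 1.5% and 3.69% of PD in WT. In the WT step, 22 of 35 processing genes, 12 of 17 transcription genes and 11 of 16 replication genes were lower in RS. Over all tested genes 46.7% were lower. Those of the lists included Upf1, which acts in histone mRNA decay, and Ccne2 and Cdk2, the cyclin and kinase of S-phase entry. Asf1b, a histone chaperone, was also lower, while Cstf2 rose. In the RS libraries 19 spermatocyte genes stood at a median 3.79% and 4.12% (WT) and 5.62% and 4.96% (Setd2KO) of their PD level in the same genotype. They were chosen as at least 20 FPKM in PD WT and at least 20 times RS WT, which holds their RS WT share low.

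Genes that rose from spermatocyte to spermatid were 3 in WT, and each belonged to a different class. Hist1h2bp, an H2B gene (chr13:21879357-21879812, plus strand), was at 13.9 and 22.4 FPKM in WT and 40.4 and 36.4 in Setd2KO spermatocytes, and 58.1 and 51.8 in WT and 54 and 62.4 in Setd2KO spermatids. Its relative change was 1.79 ± 0.20 in WT (adjusted p = 1.47e-05) and 0.85 ± 0.20 in Setd2KO (adjusted p = 0.0168), the latter lost without replicate 2 of PD Setd2KO or of RS Setd2KO (0.0875 to 0.104). All spermatid libraries were above all spermatocyte libraries.

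Hist1h3a, an H3 gene (chr13:23853754-23854255, minus strand), was at 1.25 and 1.19 FPKM in WT and 3.28 and 3.44 in Setd2KO spermatocytes, and 5.25 and 4.66 in WT and 4.88 and 5.64 in Setd2KO spermatids, with relative changes of 1.63 ± 0.11 in WT (adjusted p = 2.54e-07) and 0.79 ± 0.11 in Setd2KO (adjusted p = 0.00112). Its neighbour Hist1h4a, an H4 gene (chr13:23852664-23853118, minus strand), was at 5.16 and 9.82 FPKM in WT and 14.0 and 12.5 in Setd2KO spermatocytes, and 14.9 and 14.9 in WT and 9.58 and 11 in Setd2KO spermatids. It rose in WT (1.17 ± 0.21, adjusted p = 0.00137) and had an adjusted p of 0.166 in Setd2KO, where its spermatid libraries were below its spermatocyte libraries. Its rise in PD Setd2KO over PD WT (0.61 ± 0.21, adjusted p = 0.0144) was lost without replicate 1 of PD WT or of PD Setd2KO (0.0558 to 0.0638). For all 3 genes PD Setd2KO stood between PD WT and RS WT.

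Besides these, 7 tested genes were not called between WT spermatocytes and spermatids: Hist2h2aa1, Hist2h2aa2, Hist1h2bm, Hist1h2bn, Hist1h2bg, Hist1h2ao and Hist1h3h. Hist2h2aa1 had a log2 change of -0.05 ± 0.20 in WT and -0.71 ± 0.20 in Setd2KO (adjusted p = 0.00709) on the deposited scale. The latter had an adjusted p of 0.0571 under upper-quartile scaling, and the former of 0.0247 (-0.36) under quantile normalization. The summed Hist2 level in RS WT was 73.0% of that in PD WT, against 28.7% for Hist1. The overlapping Hist2h2aa1 and Hist2h2aa2 made up 186 of that Hist2 level in FPKM, and the other 8 Hist2 genes stood at 11.7% of PD WT.

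H3K36me3 peaks touched a minority of the clustered histone genes. In PD WT 7 of the 64 genes shared at least 1 base with a peak, 10.9%, beside 46.4% of autosomal genes and 3.67% of autosomal genes shorter than 1 kb. Among those short genes with at least 1 FPKM in PD WT the share was 35.5%, and among histone genes of that level 13.7% (7 of 51). In RS WT 8 of 64 were touched, 12.5%, beside 45% of autosomal genes and 3.81% of those shorter than 1 kb. Among short genes with at least 1 FPKM in RS WT the share was 34.4%, and among histone genes of that level 25% (6 of 24). The histone share was thus below that of all autosomal genes and of short genes of that level, and above that of all short genes. The histone genes were left in these other sets, and they make up much of the short genes of at least 1 FPKM in PD WT (121 in all). In both Setd2KO lists 0 were touched, beside 2.02% (PD) and 5.44% (RS) of autosomal genes. Of the 1418 autosomal genes shorter than 1 kb, 0 (PD) and 1 (RS) were touched, so the histone genes did not differ from short genes there. With at least 50% of the gene required, the number was 3 in each WT list. The lists are 1 per group, so the difference between genotypes has no replicate check.

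The covered genes were mostly those of Hist2. In PD WT they were Hist2h2ab (10.5% of its length), Hist2h2ac (47.4%), Hist2h2be (100%), Hist2h3c1 (31.3%) and Hist2h3c2 (32.0%), with Hist3h2a (100%) and, in Hist1, Hist1h4b alone (71.6%). In RS WT no peak touched Hist1h4b, while the same 6 genes of Hist2 and Hist3 were touched, with Hist2h2aa1 (1.08%) and Hist2h2aa2 (7.72%) at their edges. Hist2h2be lay wholly inside a peak in both cell types, chr3:96024582-96028161 in PD WT and chr3:96024675-96028424 in RS WT. The longest Hist2 peak in each list (chr3:96044729-96049022 and chr3:96044275-96049425) lay just before Hist2h2aa1 and Hist2h2aa2. Peaks covered 29.5% of the 50.3 kb Hist2 span in PD WT and 33.7% in RS WT.

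**Figure D4:**
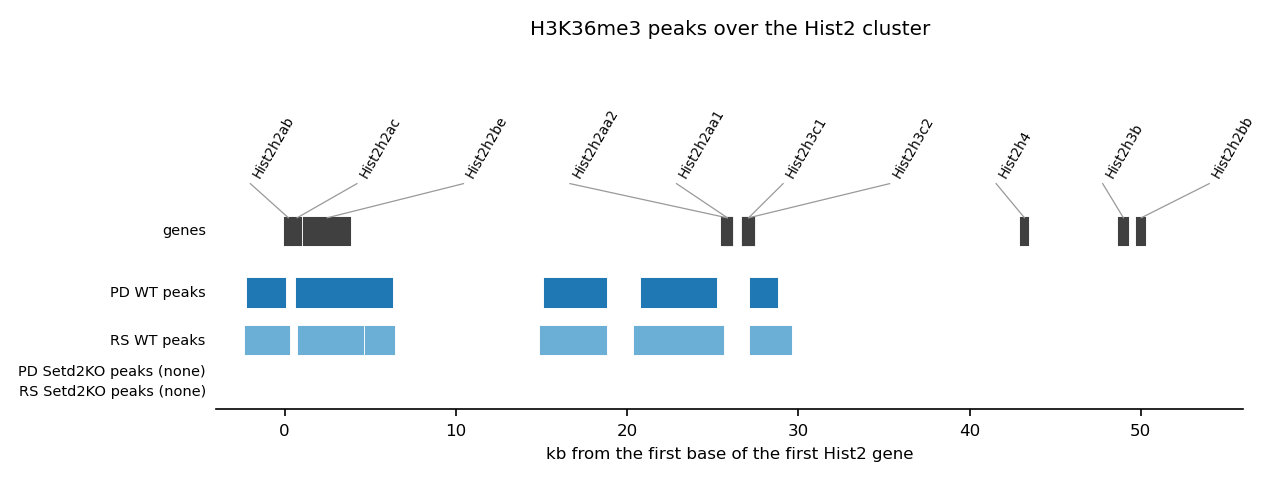
Hist2 cluster to scale, in kb from the first base of its first gene: genes in grey, H3K36me3 peaks of PD WT in dark blue and of RS WT in light blue, with 0 peaks in either Setd2KO list. Peaks lie over Hist2h2ab, Hist2h2ac and Hist2h2be, before Hist2h2aa1 and over part of Hist2h3c1 and Hist2h3c2, and there is none over Hist2h4, Hist2h3b or Hist2h2bb.

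In the Hist1 span, 2219 kb, peaks covered 2.47% in PD WT and 2.53% in RS WT. The longest (chr13:23443787-23455364 in PD WT, chr13:23443503-23459910 in RS WT) lay over Zfp322a, a zinc finger gene, and others over Pom121l2, Zfp184 and Abt1. The 50 uncovered Hist1 genes were a median of 51.4 kb from the nearest peak in PD WT. Hist1h4h, in PD WT the second highest of the 51 Hist1 genes chosen, began 27 bases beyond the end of a peak of 5359 bases (chr13:23617528-23622886), whose own interval held none of the measured genes. In PD Setd2KO the Hist1 span held 2 peaks of 770 and 746 bases, and the nearest histone gene was 216 kb away.

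Set beside the RNA, the 7 genes under a PD WT peak included 0 called higher and 1 called lower in PD Setd2KO, with a median log2 change of 0.20, near the all-gene 0.19. The 57 without a peak included 45 called higher and 0 lower among 53 tested, with a median of 0.85. All 9 genes that entered the test through PD Setd2KO alone are in the second set, and of its 44 genes with a mean over all 8 libraries of at least 1 FPKM, 37 were called higher, with a median of 0.90. Hist1h4b, the covered Hist1 gene, was at 6.91 and 12.3 FPKM in PD WT and 12.4 and 12.2 in PD Setd2KO (adjusted p = 0.16), so the groups overlapped. Hist2h2ab was at 14.2 and 21.9 against 24.7 and 18.4 FPKM, and Hist2h2ac at 13.9 and 20.3 against 19.9 and 18.3. Within Hist2, the uncovered Hist2h2bb was at 4.56 and 5.57 FPKM in PD WT and 9.14 and 10.7 in PD Setd2KO (relative change 0.66 ± 0.12, adjusted p = 0.000612). The difference between covered and uncovered genes was not tested, and 5 of the 7 covered genes lie in Hist2, so that cluster and mark cannot be told apart for them. The uncovered Hist2h3b was not called.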

How the data were processed

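RNA values are FPKM as deposited by the authors, made with CASAVA, TopHat2, Cufflinks and Cuffdiff on build mm9 per the submitters' processing notes, from poly(A)-selected RNA and a directional kit per the labels. Peak lists, with a score per peak, were deposited by the authors. They carry MACS names per the files, and the labels name spike-in chromatin; whether it or the input libraries, not analysed here, entered the calls is not given in the sources used here. Coordinates are 1-based. Whole reads were recovered from FPKM at a tolerance of 0.05, with 93% to 100% of low values whole. Genes reaching 1 FPKM in the mean of any group were fitted as log2(FPKM + 1) in limma 3.58.1 (R 4.3.3) with a trend and 1 mean per group, and p-values were adjusted over 11452 genes by Benjamini-Hochberg. The script was tested on simulated data. Gene lists came from general knowledge. The members and lists were chosen with earlier results of these data known. Values in every library are given for the 10 genes highest in any group and, per contrast and direction, the 5 called genes with the largest change. Alternatives covered pseudocount, filter, scaling, replicate block, subtraction of the other cell type, left-out libraries and peak overlap.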

Additional observations from a re-analysis of the deposited data

Results flagged for a closer look

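The effect of Setd2KO differed between the 2 cell types for 29 of the 60 tested histone genes, by the limma test of the difference (RS effect less PD effect, adjusted p under 0.05). Differences are log2 values less the all-gene median of -0.16. Of the genes called, Hist1h3h, Hist1h2bg, Hist1h3g, Hist1h2af, Hist1h2ak and Hist1h3e entered the test through PD Setd2KO alone, so their PD effect had to be a rise. A negative value means that the RS effect, with its sign, was below the PD effect, and for 2 genes the RS effect was itself called lower, Hist1h2bm (0.90 in PD, not called, and -1.22 in RS) and Hist1h4f (1.06 and -0.37, both called), on the deposited scale. The larger negative values were those of Hist1h2bm (-1.96), Hist1h3f (-1.30), Hist1h4f (-1.28), Hist1h4a (-1.14), Hist1h2br (-1.12), Hist1h2bq (-1.12), Hist1h4m (-1.11), Hist1h4n (-1.04), Hist1h2bk (-1.04), Hist1h1e (-1.03), Hist1h1a (-0.97), Hist1h2bp (-0.84), Hist1h2bf (-0.79), Hist1h1c (-0.76) and Hist1h3a (-0.75). The others were those of Hist1h3h (-0.73), Hist1h2bb (-0.72), Hist1h3b (-0.68), Hist2h2bb (-0.55), Hist1h2bg (-0.54), Hist1h2ah (-0.52), Hist4h4 (-0.52), Hist1h3g (-0.50), Hist1h2af (-0.50), Hist1h2ad (-0.47), Hist1h2ak (-0.45), Hist1h2ac (-0.39) and Hist1h3e (-0.27). Hist2h2be had a difference of 1.08 ± 0.22 (adjusted p = 0.00776), being lower in Setd2KO in both PD libraries and higher in both RS libraries. The call of Hist1h2bp ended without PD Setd2KO replicate 1, RS WT replicate 1 or RS Setd2KO replicate 1 (adjusted p from 0.0555 to 0.0731). The call of Hist1h4m ended without PD WT replicate 1, either RS WT library or RS Setd2KO replicate 2 (0.054 to 0.0899). The call of Hist1h2bm ended without either PD WT library (0.0566 to 0.0821), and in RS WT its libraries were at 5.85 and 0.977 FPKM. Hist1h2ac lost its call without PD WT replicate 1, PD Setd2KO replicate 2, either RS WT library or RS Setd2KO replicate 2 (0.1 to 0.142). Hist4h4 lost its call without any library except PD WT replicate 2 (0.0518 to 0.15).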

How the results depend on the processing

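For the 24 genes given with values in every library by the rule, of the alternatives tried, 1856 left the call as it was, 125 ended it and 30 created it, and none turned a called direction. In PD the 45 genes called higher ranged from 35 (upper-quartile scaling) to 46 (the block with crossed numbers) under the other settings and from 33 to 54 when 1 library was left out. The 1 called lower, Hist2h2be, became 0 with a pseudocount of 0.1 FPKM, no filter, a filter of 0.1 FPKM, a fit on only the groups compared and the replicate block, and 0 to 2 when 1 library was left out. In RS the 7 called higher became 14 with a pseudocount of 0.1 FPKM and 2 to 9 when 1 library was left out. The 2 called lower became 0 with no filter and 0 to 2 when 1 library was left out. Between cell types, the 2 higher in Setd2KO became 1 to 2 when 1 library was left out. For the difference between effects, the 1 higher became 1 to 2 and the 28 lower 19 to 38 when 1 library was left out. The 28 became 16 with a pseudocount of 0.1 FPKM, a share near that of all tested genes at that setting (3177 of 11452), and 18 with quantile normalization. The genes under a WT peak became 3 in PD and 3 in RS when at least 50% of the gene had to be covered. The summed level in PD Setd2KO, 1492 FPKM, became 1291 with upper-quartile scaling and 1249 without Hist1h4c, the gene with the highest mean in any group, and in RS Setd2KO 345.0 became 375.5 and 334.4. Without Hist2h2aa1 and Hist2h2aa2, which are highest in RS, an alternative chosen after seeing the data, the sums were 708.9 FPKM in PD WT, 1190 in PD Setd2KO, 147.5 in RS WT and 160.6 in RS Setd2KO. Counting overlapping genes once, an alternative chosen after seeing the data, gave 42 higher and 1 lower in PD.

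Replicate numbers did not pair the samples: deviations of same-numbered libraries correlated between -0.309 and 0.0682. With the replicate block the counts higher and lower were 43 and 0 in PD, 7 and 2 in RS, 3 and 49 between cell types in WT, 2 and 56 in Setd2KO, and 1 and 26 for the difference. Crossing the numbers of the RS Setd2KO libraries in that block, an alternative chosen after seeing the data, gave 46 and 1, 9 and 2, 3 and 52, 2 and 56, and 1 and 34.

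The RS libraries held medians of 18.5 to 30 reads per histone gene, and the smallest detectable difference was not tested. Leaving out 1 of 2 libraries assumes that the lone one varies like the other groups.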
